A study of Homo sapiens with 9 samples.

Results

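The levels of 10 Wnt pathway genes were followed in MDA-MB-231 cells, an established human triple-negative breast cancer line, that had been kept in DMSO (vehicle) or treated with erastin (erastin-R) or RSL3 (RSL3-R), the treated cells being named resistant by the submitters. They were chosen by symbol from the 58735 genes of the annotation and comprised the secreted ligands WNT5A and WNT5B, the Frizzled receptors FZD1, FZD2, FZD6, FZD7 and FZD8, the co-receptor LRP6, the secreted antagonist DKK1 and the feedback regulator AXIN2. Each condition had 3 libraries, 9 in all, of poly(A)-selected RNA. Both treated populations were cells that survived exposure to rising concentrations of the drug. Their resistance was not measured in these data, so resistant is used below only as the submitters' name for them. The labels name no other agent or allele in any condition. Erastin blocks system xc-, the cystine importer, and RSL3 blocks glutathione peroxidase 4, and either block leads to ferroptosis, an iron-dependent death by lipid peroxidation. The labels do not say that the 3 libraries of a condition came from separate cultures, so the p-values measure the spread between these libraries, which may be technical. A bulk library cannot tell a smaller share of cells expressing a gene from less RNA of that gene per cell.

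Wnt proteins are lipid-modified secreted ligands that bind Frizzled receptors at the cell surface. With LRP5 or LRP6 as co-receptor, binding stops the destruction complex and lets beta-catenin reach the nucleus, where it acts with TCF and LEF factors on target genes such as AXIN2. WNT5A and WNT5B are best known for the non-canonical branches, which work without beta-catenin and act on cell polarity and migration. DKK1 binds LRP5 and LRP6 and blocks the canonical branch, and its own gene is a known beta-catenin target.

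The total count was 15405102 to 17273464 per library. The common dispersion of edgeR's fit corresponded to a coefficient of variation of 8.56% between libraries of a condition. This is a model value over all genes that leaves out counting error, so single genes of low count varied more. The line's markers were read as FPKM, fragments scaled by gene length and library size, the unit used here for all levels compared between genes. VIM, a mesenchymal filament, lay at 245 to 301 FPKM, and the estrogen and progesterone receptors ESR1 and PGR stayed at or below 0.0533 and 0.00793 FPKM. The FPKM of 5 markers of leukocytes, endothelium and fibroblasts (PTPRC, PECAM1, CDH5, COL1A1, PDGFRB) was summed. The sum was 2.92 to 3.18 in vehicle, 1.91 to 2.29 in erastin-R and 4.28 to 4.51 in RSL3-R. In that order, PECAM1 was 1.21 to 1.39, 0.162 to 0.271 and 1.49 to 1.76 FPKM. PDGFRB was 0.941 to 1.01, 0.786 to 0.987 and 1.51 to 1.65. PTPRC was 0.0266 to 0.0707, 0.0197 to 0.0701 and 0.133 to 0.161. COL1A1 was 0.692 to 0.888, 0.786 to 0.9999 and 0.912 to 1.21. CDH5 lay at 0 to 0.0297 FPKM in all libraries. The keratins KRT8 and KRT18 and the epithelial cadherin CDH1 differed between conditions. KRT8 was 43.1 to 44.6 FPKM in vehicle, 20.4 to 23.4 in erastin-R and 24.7 to 26.4 in RSL3-R, and KRT18 was 51.0 to 53.1, 21.3 to 26.8 and 48.7 to 56.1. CDH1 was 0.138 to 0.267 FPKM in vehicle, 0.0609 to 0.195 in erastin-R and 0.518 to 0.611 in RSL3-R. CD44 was 30.4 to 31.8 FPKM in vehicle, 26.8 to 29.6 in erastin-R and 22.8 to 23.5 in RSL3-R. In the same order, ERBB2 was 8.44 to 9.28, 7.42 to 8.54 and 5.74 to 6.13, and EPCAM was 0.679 to 1.12, 0.373 to 0.598 and 0.513 to 0.808. The part of these shifts in the results below was not tested. Erastin-R replicate 1 stood apart from its condition on the third principal component, which held 6.71% of the variance, and it had 7.95% mitochondrial counts against 5.55 and 5.84% in erastin-R replicates 2 and 3. Counts of called members that involve erastin-R are therefore also given without that library, as are some of the values that it changed.

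Promoter sequence was printed for FZD1, FZD8 and DKK1, which have an entry in the RefSeq promoter table (GRCh38.p14) whose start lies within 69 bases of the start of the deposited gene. FZD1 and FZD8 had the largest fall and rise from vehicle, and DKK1 is the antagonist and a known target. The entries of WNT5A and WNT5B start at least 3233 bases inside the deposited genes and are not shown. Windows end at the RefSeq start, except that of FZD1, which was ended where the deposited gene begins. Capitals mark 3 short motifs, searched on both strands, none of which overlapped another. The first was CTTTGA, a core bound by TCF and LEF factors and read as TCAAAG where it lies on the other strand. The second was CCAAT, bound by NF-Y and here read from the other strand as ATTGG. The last was TATAAA, the TATA box. CCAAT and TATAAA were chosen after the sequences had been seen.
FZD1 promoter, chr7:91264183-91264363, plus strand: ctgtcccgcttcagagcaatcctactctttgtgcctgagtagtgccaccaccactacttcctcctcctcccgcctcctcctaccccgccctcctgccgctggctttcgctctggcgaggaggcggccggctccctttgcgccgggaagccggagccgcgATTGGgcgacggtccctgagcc
FZD8 promoter, chr10:35642297-35642546, minus strand: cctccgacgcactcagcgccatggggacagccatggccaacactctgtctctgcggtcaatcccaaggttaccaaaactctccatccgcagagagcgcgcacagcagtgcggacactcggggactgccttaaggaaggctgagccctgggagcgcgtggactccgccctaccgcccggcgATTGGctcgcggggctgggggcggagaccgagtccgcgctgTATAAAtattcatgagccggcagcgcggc
DKK1 promoter, chr10:52314031-52314280, plus strand: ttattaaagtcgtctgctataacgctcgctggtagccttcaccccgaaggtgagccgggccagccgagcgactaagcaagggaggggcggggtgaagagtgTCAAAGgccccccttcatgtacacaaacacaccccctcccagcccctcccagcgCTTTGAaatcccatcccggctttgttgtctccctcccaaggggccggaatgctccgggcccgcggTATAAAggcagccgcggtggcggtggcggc
The DKK1 window held CTTTGA at positions -149 to -144 on the minus strand and at -95 to -90 on the plus strand, counted from the RefSeq start. Of 35116 windows of 250 bases in the table, 11.2% held this motif on either strand. The FZD1 window held CCAAT at -91 to -87 and that of FZD8 at -70 to -66, a motif found in 32% of windows. TATAAA lay at -29 to -24 in FZD8 and at -30 to -25 in DKK1, and 10.7% of windows held it. The 250-base windows of FZD1, FZD8 and DKK1 had GC contents of 65.2, 65.2 and 62.8%, against a median of 58% over all windows. These matches describe the letters of the windows only.

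The members are annotated on GRCh38 and all code for protein. WNT5A lies at chr3:55465715-55490539 on the minus strand and WNT5B at chr12:1529891-1647243 on the plus strand. FZD1 lies at chr7:91264364-91271326, FZD2 at chr17:44557459-44559570, FZD7 at chr2:202034587-202038445 and DKK1 at chr10:52314296-52318042, all on the plus strand, as is FZD6 on chromosome 8. FZD8 lies at chr10:35638249-35642278, LRP6 at chr12:12116025-12267012 and AXIN2 at chr17:65528563-65561647, all on the minus strand.

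DKK1 had the highest level of the 10 genes in every condition, and AXIN2 the lowest. In vehicle, mean FPKM was 39.5 for DKK1, 25.0 for FZD2, 23.2 for FZD6, 14.8 for FZD7, 8.96 for FZD1, 6.65 for LRP6, 4.92 for FZD8, 4.03 for WNT5A, 3.47 for WNT5B and 0.496 for AXIN2 (n = 3 each). Of these neighbors, FZD2 and FZD6 overlapped in their 3 libraries, as did FZD8 and WNT5A. In erastin-R, FZD1 dropped to the ninth place at 2.72 FPKM, and its libraries overlapped those of WNT5B at 4.12 FPKM. In RSL3-R, FZD8 took the fourth place at 18.1 FPKM, apart from FZD2 above it (23.7 FPKM) and from FZD7 below it (8.94 FPKM).

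**Figure D1:**
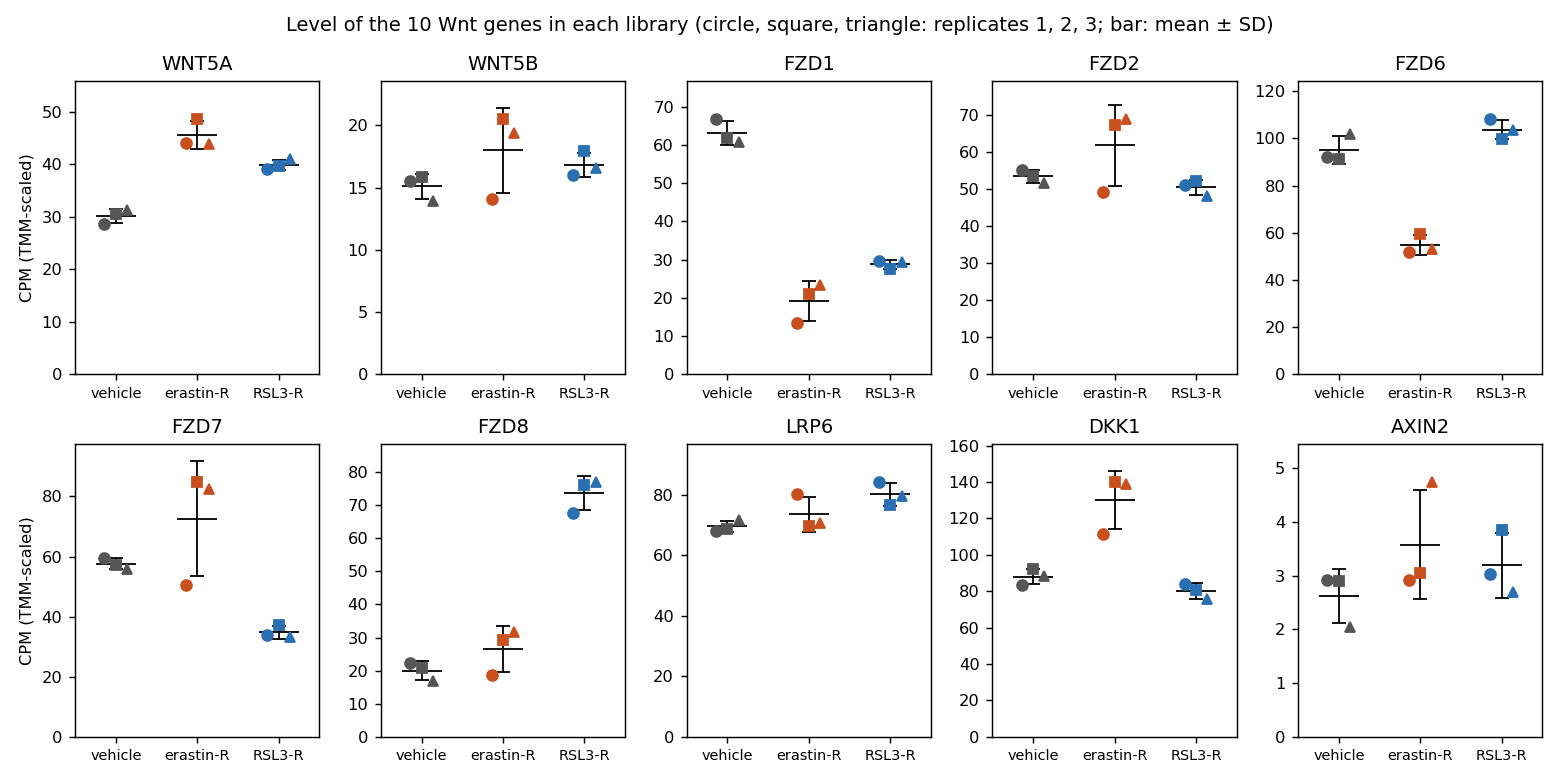
Count scaled to library size (CPM, on TMM-scaled sizes) of the 10 genes on the vertical axis of each panel, by condition; circles, squares and triangles are replicates 1, 2 and 3, and bars give the mean ± SD of 3 libraries. FZD1 was below vehicle in all 6 resistant libraries, FZD6 was low only in the erastin-R libraries, and FZD8 reached 67.8 to 77.0 CPM in RSL3-R.

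The main comparisons asked which of these genes differed between resistant cells and vehicle. In erastin-R, 3 of the 10 genes rose (WNT5A, DKK1, FZD8) and 2 fell (FZD1, FZD6) at an adjusted p under 0.05 in edgeR's quasi-likelihood test. Over all 16188 genes tested, 27.1% were called higher and 26.8% lower in this comparison, so the members' share was close to that of all genes. Only FZD1 was differentially expressed, which also needs a log2 fold change of at least 1 in size, as 13.4% of all genes were. In RSL3-R, 3 genes rose (WNT5A, FZD8, LRP6) and 2 fell (FZD1, FZD7), against 23.8% of all genes called higher and 24.9% lower. FZD1 and FZD8 were differentially expressed there, against 10.1% of all genes. The vehicle libraries are shared by these comparisons, which are therefore not independent of each other.

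Set directly against each other, RSL3-R was higher than erastin-R in 3 genes (FZD1, FZD6, FZD8) and lower in 4 (WNT5A, FZD2, FZD7, DKK1). Of all genes, 22.3% were called higher and 26.9% lower in this comparison. FZD7 and FZD8 were differentially expressed, against 10.3% of all genes. Without erastin-R replicate 1, 7 of the 10 genes were called higher and 2 lower in erastin-R than in vehicle, LRP6 being the exception, while 59.9% of 16619 genes tested were called in either direction. The direct comparison without that library called 4 genes higher and 5 lower, beside 57.1% of all genes.

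**Figure D2:**
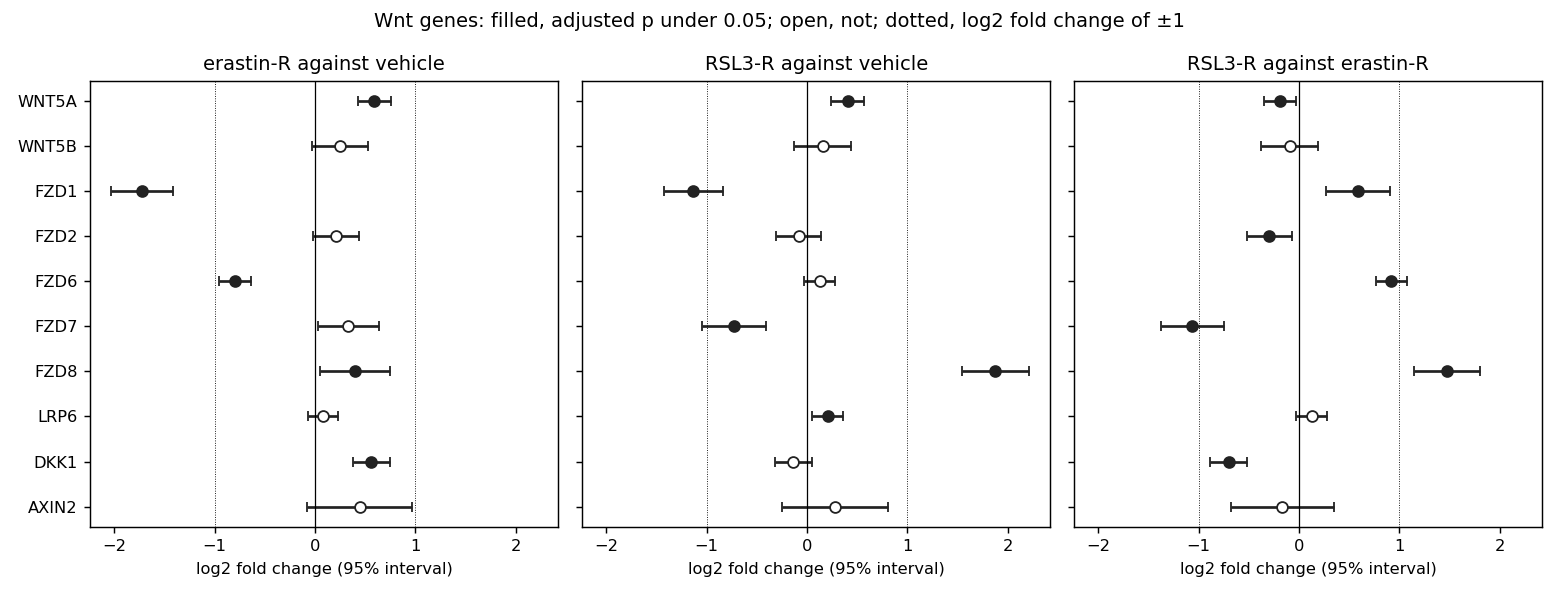
Log2 fold change with its 95% interval (horizontal axis) for the 10 genes in the 3 comparisons, from the edgeR fit of all 9 libraries; filled points passed an adjusted p of 0.05, and dotted lines mark a log2 fold change of 1 in either direction. FZD1 lay below 0 in both comparisons with vehicle (-1.72 and -1.13), and FZD2, FZD6, FZD7 and DKK1 had opposite signs in them, although the values of FZD2 passed the test in neither.

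Of the ligands, WNT5A was higher in both resistant populations. WNT5A is a driver of non-canonical signaling in many tumors with a mesenchymal character. Its CPM was 28.7, 30.4 and 31.3 in vehicle, 44.1, 48.5 and 43.8 in erastin-R, and 39.1, 39.6 and 41.0 in RSL3-R. The 3 conditions did not overlap, with erastin-R highest and vehicle lowest. The log2 fold change was 0.59 ± 0.07 (SE, edgeR adjusted p = 1.50e-05) in erastin-R and 0.40 ± 0.07 (adjusted p = 4.99e-04) in RSL3-R. The difference between RSL3-R and erastin-R was -0.19 ± 0.07 (edgeR adjusted p = 0.0455), and this call held in 2 of 14 alternative analyses, with adjusted p up to 0.225. It was lost on leaving out any library except erastin-R replicates 1 and 3, with differences of -0.19 to -0.14.

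WNT5B, a close paralog of WNT5A, did not pass the test in any comparison. Its CPM was 15.6, 15.8 and 13.9 in vehicle, 14.1, 20.5 and 19.4 in erastin-R, and 16.0, 17.9 and 16.6 in RSL3-R. Erastin-R replicate 1 lay within the vehicle range and the other erastin-R libraries lay above it. The log2 difference from vehicle was 0.25 (95% interval -0.03 to 0.53, edgeR adjusted p = 0.126) in erastin-R and 0.16 (-0.13 to 0.44, adjusted p = 0.355) in RSL3-R. Without erastin-R replicate 1 the first was 0.40 (edgeR adjusted p = 0.00207). The exons of WNT5A and WNT5B shared no stretch of 50 bases with each other or with another gene, so a read of that length would not be split between them.

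FZD1 showed the largest fall of the 10 genes. Frizzled receptors are seven-pass membrane proteins, and FZD1, FZD2 and FZD7 form a subfamily that can pass on canonical signals. FZD1 CPM was 66.7, 61.8 and 60.8 in vehicle, 13.3, 21.0 and 23.2 in erastin-R, and 29.7, 27.5 and 29.2 in RSL3-R. Its 3 conditions did not overlap, with the lowest value in erastin-R replicate 1. In erastin-R it fell by 1.72 ± 0.14 on the log2 scale (edgeR adjusted p = 3.15e-07), to 0.304 of the vehicle level, and by 1.51 without replicate 1. In RSL3-R it fell by 1.13 ± 0.14 (edgeR adjusted p = 1.39e-05), to 0.457 of the vehicle level. RSL3-R exceeded erastin-R by 0.59 ± 0.15 (edgeR adjusted p = 0.00440), and by 0.38 without erastin-R replicate 1. Its promoter window, printed above, held no CTTTGA and a single CCAAT.

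FZD2 differed little from vehicle. Its CPM was 55.2, 53.4 and 51.5 in vehicle, 49.3, 67.4 and 68.8 in erastin-R, and 51.1, 52.0 and 48.0 in RSL3-R. Erastin-R replicates 2 and 3 lay above all other libraries, and replicate 1 lay below the vehicle libraries. The log2 difference was 0.21 in erastin-R (95% interval -0.01 to 0.44, edgeR adjusted p = 0.105) and -0.08 in RSL3-R (-0.31 to 0.14, adjusted p = 0.542). Without erastin-R replicate 1, the erastin-R value was 0.35 (edgeR adjusted p = 3.18e-05). RSL3-R was below erastin-R by -0.29 on the log2 scale (edgeR adjusted p = 0.0322), a call that was lost without any 1 of erastin-R replicates 2 and 3 or RSL3-R replicates 1, 2 and 3 (values -0.32 to -0.21). The call was also lost in the fit of these 2 conditions only, and it held in 8 of 14 alternatives.

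FZD7, a receptor studied in triple-negative breast cancer and in stem cells, fell in RSL3-R. Its CPM was 59.5, 57.3 and 56.0 in vehicle, 50.6, 84.8 and 82.4 in erastin-R, and 33.8, 37.3 and 33.2 in RSL3-R. All RSL3-R libraries lay below all others, while the erastin-R libraries lay on both sides of vehicle. The fall in RSL3-R was -0.73 ± 0.15 on the log2 scale (edgeR adjusted p = 0.00106). In erastin-R the difference of 0.33 ± 0.14 did not pass the test (edgeR adjusted p = 0.0632), and without replicate 1 it was 0.54 (adjusted p = 3.28e-08). RSL3-R was below erastin-R by -1.06 ± 0.15 (edgeR adjusted p = 5.10e-05), and this call held in 14 of 14 alternative analyses.

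FZD8 had the largest rise of the 10 genes. FZD8 is the receptor whose ligand-binding domain was first solved in complex with a Wnt protein. Its CPM was 22.4, 20.8 and 16.9 in vehicle, 18.6, 29.2 and 31.6 in erastin-R, and 67.8, 76.1 and 77.0 in RSL3-R. The RSL3-R libraries all lay above the rest, and vehicle and erastin-R overlapped. The log2 fold change in RSL3-R was 1.88 ± 0.16 (edgeR adjusted p = 3.60e-07), which is 3.68-fold. Against erastin-R it was 1.48 ± 0.15 (edgeR adjusted p = 3.94e-06). The rise in erastin-R, 0.40 ± 0.16 (edgeR adjusted p = 0.0499), was called in 4 of 14 alternatives, with adjusted p from 4.50e-06 to 0.224. It was lost without any 1 library other than vehicle replicate 1 and erastin-R replicate 1, with values from 0.25 to 0.42, and was 0.60 without erastin-R replicate 1. The printed FZD8 window held both a CCAAT and a TATAAA motif.

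FZD6 fell in erastin-R only among the comparisons with vehicle, and the direct difference between the resistant populations passed the test. FZD6, with FZD3, belongs to the receptors used in planar cell polarity. Its CPM was 92.2, 91.1 and 102 in vehicle, 51.8, 59.6 and 52.9 in erastin-R, and 108, 99.7 and 104 in RSL3-R. The erastin-R libraries lay below all others, and vehicle and RSL3-R overlapped. FZD6 fell by 0.80 ± 0.07 on the log2 scale in erastin-R (edgeR adjusted p = 8.88e-07). In RSL3-R the difference was 0.13 (95% interval -0.03 to 0.28, edgeR adjusted p = 0.167; 0.0400 in a fit of these 2 conditions only), and RSL3-R exceeded erastin-R by 0.92 ± 0.07 (adjusted p = 4.11e-07). The antisense gene BAALC-AS1, with 11 to 42 counts per library, covers 3.40% of the FZD6 exon length.

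The Frizzled transcripts were also summed per length, as a description without a test. The sum of FZD1 to FZD10 was 80.7 ± 1.11 FPKM in vehicle, 74.0 ± 13.7 in erastin-R and 83.9 ± 0.849 in RSL3-R (SD, n = 3). Erastin-R replicate 1 held 58.1 FPKM and set the low mean of its condition. FZD1 made up 11.1% of the sum in vehicle, 3.63% in erastin-R and 4.90% in RSL3-R. FZD8 made up 6.09% in vehicle, 8.67% in erastin-R and 21.6% in RSL3-R. FZD7 went from 18.3% in vehicle to 24.8% in erastin-R and 10.7% in RSL3-R, and FZD6 from 28.7% to 18.3% and 30.2%. FZD2 held 31.0%, 39.1% and 28.2%. The libraries of the 3 conditions did not overlap in the shares of FZD1, FZD2, FZD7 and FZD8. FZD9 and FZD10 had 0 counts in every library.

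**Figure D3:**
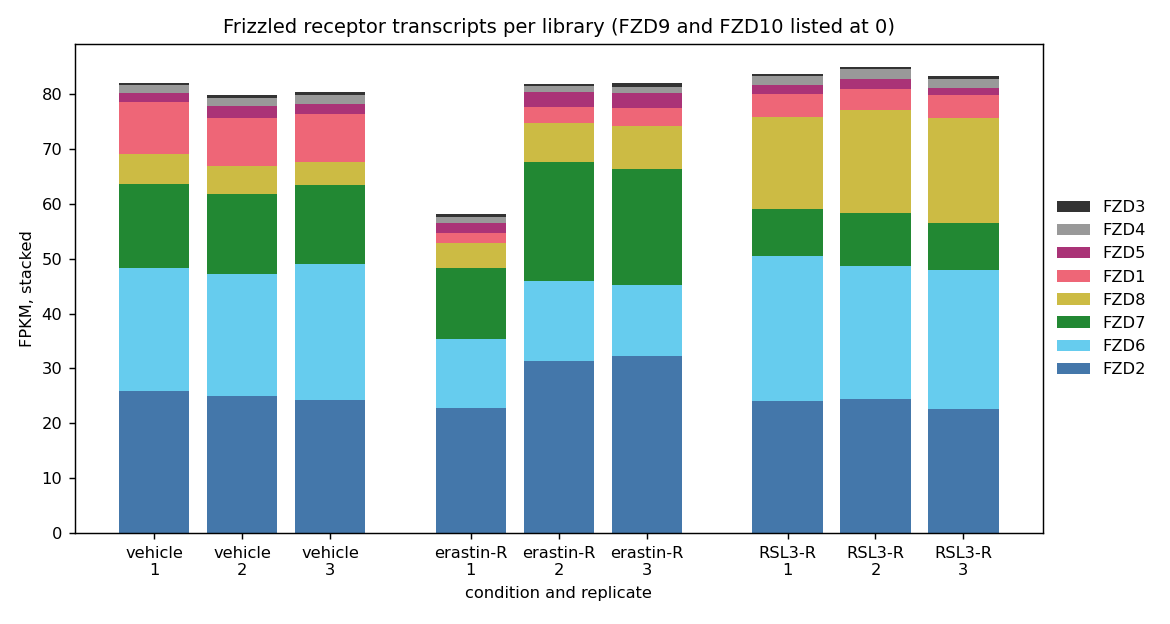
FPKM of each Frizzled gene (vertical axis, stacked from 0) in the 9 libraries, grouped by condition. The total was close to 80 FPKM in most libraries, with 58.1 FPKM in erastin-R replicate 1, while the FZD8 segment was largest in RSL3-R and the FZD1 segment largest in vehicle.

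LRP6, the co-receptor whose phosphorylated tail holds Axin at the membrane, showed small differences. Its CPM was 68.1, 68.8 and 71.6 in vehicle, 80.2, 69.7 and 70.5 in erastin-R, and 84.2, 76.6 and 79.7 in RSL3-R. The RSL3-R libraries lay above vehicle, and erastin-R overlapped both other conditions. The log2 difference in RSL3-R was 0.21 ± 0.07 (edgeR adjusted p = 0.0275), and the call was lost without vehicle replicate 1, vehicle replicate 2 or RSL3-R replicate 1 (values 0.19 to 0.21). It was also lost without a count filter, and it held in 10 of 14 alternatives, with adjusted p up to 0.0915. In erastin-R the difference was 0.08 (95% interval -0.07 to 0.23, edgeR adjusted p = 0.355). LRP5, its paralog, was named after its values had been seen, and it fell by 0.43 on the log2 scale in erastin-R (edgeR adjusted p = 2.31e-04). Without erastin-R replicate 1 the LRP5 value was -0.34 (edgeR adjusted p = 1.93e-07). In RSL3-R LRP5 differed by -3.3e-04 (edgeR adjusted p = 0.997). Its CPM was 424, 416 and 397 in vehicle, 269, 321 and 329 in erastin-R, and 392 to 423 in RSL3-R.

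DKK1 rose in erastin-R, and its difference from vehicle in RSL3-R did not pass the test. Its CPM was 83.5, 92.2 and 88.5 in vehicle, 111, 140.0 and 139 in erastin-R, and 84.1, 80.6 and 75.7 in RSL3-R. The erastin-R libraries lay above all others, and vehicle and RSL3-R overlapped. The log2 fold change was 0.56 ± 0.09 (edgeR adjusted p = 8.16e-05) in erastin-R and -0.14 in RSL3-R (95% interval -0.32 to 0.05, adjusted p = 0.211). The RSL3-R difference passed the edgeR test in the fit of these 2 conditions only (-0.13, adjusted p = 0.0487) and without erastin-R replicate 1 (-0.14, adjusted p = 0.0269). RSL3-R was below erastin-R by -0.70 ± 0.09 (edgeR adjusted p = 1.78e-05). The antisense gene PRKG1-AS1 covers 9.61% of the DKK1 exon length and had 12 to 26 counts per library, against 1296 to 2282 for DKK1. The library kit is not described as strand-specific, so reads of the shared stretch cannot be told apart. The DKK1 promoter printed above was the only member window with CTTTGA, of 7 windows from 5 genes.

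AXIN2, a scaffold of the destruction complex and a common readout of canonical signaling, was low in all libraries. It had 33 to 78 counts per library. Its CPM was 2.92, 2.90 and 2.04 in vehicle, 2.92, 3.05 and 4.74 in erastin-R, and 3.03, 3.85 and 2.69 in RSL3-R. The conditions overlapped. The log2 difference from vehicle was 0.45 (95% interval -0.08 to 0.97, edgeR adjusted p = 0.139) in erastin-R and 0.28 (-0.25 to 0.81, adjusted p = 0.373) in RSL3-R. Without erastin-R replicate 1 the erastin-R value was 0.57 (edgeR adjusted p = 0.0466). The same-strand gene AC004805.1, with 0 to 1 counts per library, shares 25.2% of the AXIN2 exon length. This overlap is the same in all 9 libraries and leaves the AXIN2 count uncertain.

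The distance of erastin-R replicate 1 from its fellow libraries was not the same for all members. Relative to erastin-R replicates 2 and 3 it was lower by 0.72 in FZD7, 0.71 in FZD1, 0.69 in FZD8, 0.49 in WNT5B and 0.46 in FZD2 on the log2 scale, and higher by 0.19 in LRP6. FZD1, FZD2, FZD7 and FZD8 are genes of a single exon. Over 16185 genes, the deviation of this library and the GC content of the transcript had a Spearman rho of -0.443, a description across genes of 1 library. The median deviation was 0.13 in the fifth of genes of lowest GC content and -0.28 in the fifth of highest. The same rho was -0.408 in vehicle replicate 3, 0.415 in erastin-R replicate 3 and 0.343 in vehicle replicate 1. It lay between -0.259 and 0.286 in the remaining libraries. Such a relation was therefore not particular to erastin-R replicate 1. Among genes of highest GC content, the median deviation was -0.11 in vehicle replicate 3 and 0.16 in erastin-R replicate 3, smaller in size than in erastin-R replicate 1. Transcript GC was 64.9% for FZD2, 64.6% for FZD8, 58.6% for WNT5B, 52.8% for FZD7, 47.7% for FZD1 and 40.2% for LRP6. Of the members with lower GC content, DKK1 (43.5%) was lower by 0.32 in this library, FZD6 (38.4%) by 0.12 and WNT5A (42.3%) by 0.07, and AXIN2 (53.1%) was lower by 0.34. Without this library the erastin-R values were -1.51 for FZD1, -0.76 for FZD6, 0.61 for WNT5A and 0.66 for DKK1, and all passed the edgeR test. RSL3-R then differed from erastin-R by 0.88 in FZD6, -1.27 in FZD7, 1.27 in FZD8 and -0.80 in DKK1, which also passed. The part of GC content in these results was not tested.

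**Figure D4:**
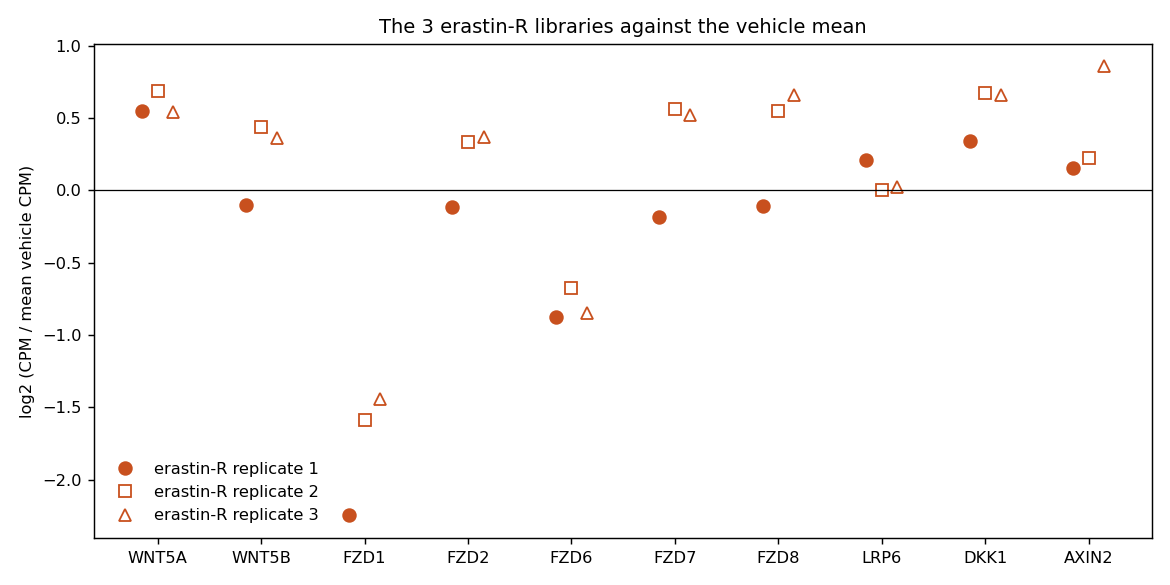
Log2 ratio of CPM to the vehicle mean (vertical axis) for each gene in erastin-R replicates 1 (filled circle), 2 (open square) and 3 (open triangle). Replicate 1 was the lowest of the 3 in WNT5B, FZD1, FZD2, FZD6, FZD7, FZD8, DKK1 and AXIN2 and the highest in LRP6, and all 3 replicates were below 0 in FZD1 and FZD6.

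Beyond the 10 genes, 102 genes of the pathway were listed by role, and 67 of them were expressed enough to test. In erastin-R 18 rose and 22 fell, with a median log2 fold change of -0.10, and in RSL3-R 16 rose and 22 fell, with a median of -0.10. Over all genes tested, 27.1% were called higher and 26.8% lower in erastin-R and 23.8% and 24.9% in RSL3-R, with medians of -0.0042 and 0.0052, and these shares are the background of each list count that follows. Of the list genes named here, 18 were also read without erastin-R replicate 1, all but LGR4, ZNRF3, RYK, PTK7, TLE1 and TLE3. Of these 18, 14 were called in erastin-R and 13 in the direct comparison. All of these were also called, in the same direction, without that library. Most of the 18 had been named for a large change in these same data, so these counts are no independent check. Without that library, 59.9% of all genes tested were called in erastin-R and 57.1% in the direct comparison, in either direction. Among the other 17 ligands 6 were tested. In erastin-R, 2 rose and 2 fell, and in RSL3-R 3 rose and 2 fell. WNT9A fell by 2.58 ± 0.21 on the log2 scale in erastin-R and by 1.48 ± 0.19 in RSL3-R (edgeR adjusted p = 2.50e-07 and 1.98e-05), from 9.99 to 12.8 CPM in vehicle to 1.58 to 2.42 and 3.04 to 4.72 CPM. WNT8B rose by 1.82 and 1.71 (edgeR adjusted p = 3.22e-04 and 6.46e-04), from 8 to 16 counts per vehicle library. WNT2B rose only in the RSL3-R comparison, by 1.28 (edgeR adjusted p = 3.50e-06), beside -0.18 in erastin-R (adjusted p = 0.309), and the direct difference of 1.46 passed the test (adjusted p = 1.65e-06). WNT10B fell in RSL3-R by 1.19 (edgeR adjusted p = 0.0103), beside -0.31 (adjusted p = 0.429) in erastin-R. The latter was -5.0e-05 without erastin-R replicate 1.

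Wnt ligands need PORCN, which acylates them, and WLS, which carries them to the surface. PORCN rose in erastin-R (0.46, edgeR adjusted p = 6.28e-04) and in RSL3-R (0.36, adjusted p = 0.00448). WLS fell by 0.50 in erastin-R (edgeR adjusted p = 5.92e-06), and differed by 0.11 (adjusted p = 0.108) in RSL3-R. Of 7 tested receptors other than the members, 1 rose and 3 fell in erastin-R, and 1 rose and 1 fell in RSL3-R. ROR1, a receptor of WNT5A, had 36.6, 37.2 and 46.9 CPM in vehicle, 12.1, 13.1 and 13.3 in erastin-R, and 28.2, 29.2 and 31.9 in RSL3-R. ROR1 fell in both, by 1.65 ± 0.11 in erastin-R (edgeR adjusted p = 4.12e-08) and by 0.43 ± 0.10 in RSL3-R (adjusted p = 0.00293), while WNT5A rose in both. RYK and PTK7 of the same list were named after their values had been seen. RYK rose by 0.17 in erastin-R and 0.25 in RSL3-R (edgeR adjusted p = 0.0259 and 0.00384). PTK7 differed by -0.10 in each (edgeR adjusted p = 0.310 and 0.299).

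Of 5 tested antagonists other than DKK1, 3 rose and 0 fell in erastin-R, and 2 rose and 2 fell in RSL3-R. KREMEN2, a membrane partner of DKK1, had 1.43, 1.73 and 1.17 CPM in vehicle, 1.79, 4.26 and 4.74 in erastin-R, and 0.451, 0.621 and 0.643 in RSL3-R. KREMEN2 rose by 1.31 ± 0.33 in erastin-R (edgeR adjusted p = 0.00444) and fell by 1.32 ± 0.43 in RSL3-R (adjusted p = 0.0205). The rise was 1.63 without erastin-R replicate 1. FRZB, a secreted Frizzled-related protein, had 0 to 2 counts per vehicle library. FRZB counts were 15 to 19 per library in erastin-R and 5 to 9 in RSL3-R. With vehicle set to a floor of 3 counts per library, its mean CPM was 5.82-fold higher in erastin-R and 2.25-fold higher in RSL3-R. These ratios are not lower limits, as they leave out the error of the resistant libraries. The log2 fold change was 3.96 (95% interval 2.65 to 5.28, edgeR adjusted p = 9.40e-05) in erastin-R. In RSL3-R it was 2.61 (1.07 to 4.15, edgeR adjusted p = 0.00814).

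Of 4 tested genes of the R-spondin module, which sets how many Frizzled receptors stay at the surface, 0 rose and 3 fell in each resistant population. The 3 were LGR4, LGR5 and ZNRF3, whose parts in this differ, so the count gives no direction for surface receptors. LGR4 and ZNRF3 were named after their values had been seen. LGR4 fell by 0.45 in erastin-R and 0.55 in RSL3-R (edgeR adjusted p = 7.27e-05 and 1.35e-05). ZNRF3 fell by 0.45 and 0.94 (edgeR adjusted p = 0.0232 and 2.39e-04). LGR5, a receptor of R-spondins and a stem cell marker, had 58 to 84 counts per vehicle library, 4 to 6 in erastin-R and 22 to 27 in RSL3-R. LGR5 fell by 3.78 ± 0.31 and 1.55 ± 0.24 on the log2 scale (edgeR adjusted p = 2.61e-07 and 1.04e-04). Of 10 tested beta-catenin target and feedback genes other than AXIN2 and DKK1, 1 rose and 5 fell in erastin-R (median -0.17), and 0 rose and 6 fell in RSL3-R (median -0.76). CCND1, cyclin D1, fell by 1.05 in erastin-R and by 0.36 in RSL3-R (edgeR adjusted p = 2.71e-09 and 5.24e-05). TNFRSF19 fell by 1.77 and 1.34 (edgeR adjusted p = 2.74e-05 and 2.42e-04). SP5, a transcription factor, fell by 1.43 in RSL3-R (edgeR adjusted p = 1.48e-04), with -0.11 in erastin-R (adjusted p = 0.676). Without erastin-R replicate 1 the erastin-R value of SP5 was 0.13 (edgeR adjusted p = 0.436). LEF1, a nuclear partner of beta-catenin named after its values had been seen, rose by 0.39 in erastin-R (edgeR adjusted p = 0.00561). The counts of this list were the same without erastin-R replicate 1.

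**Figure D5:**
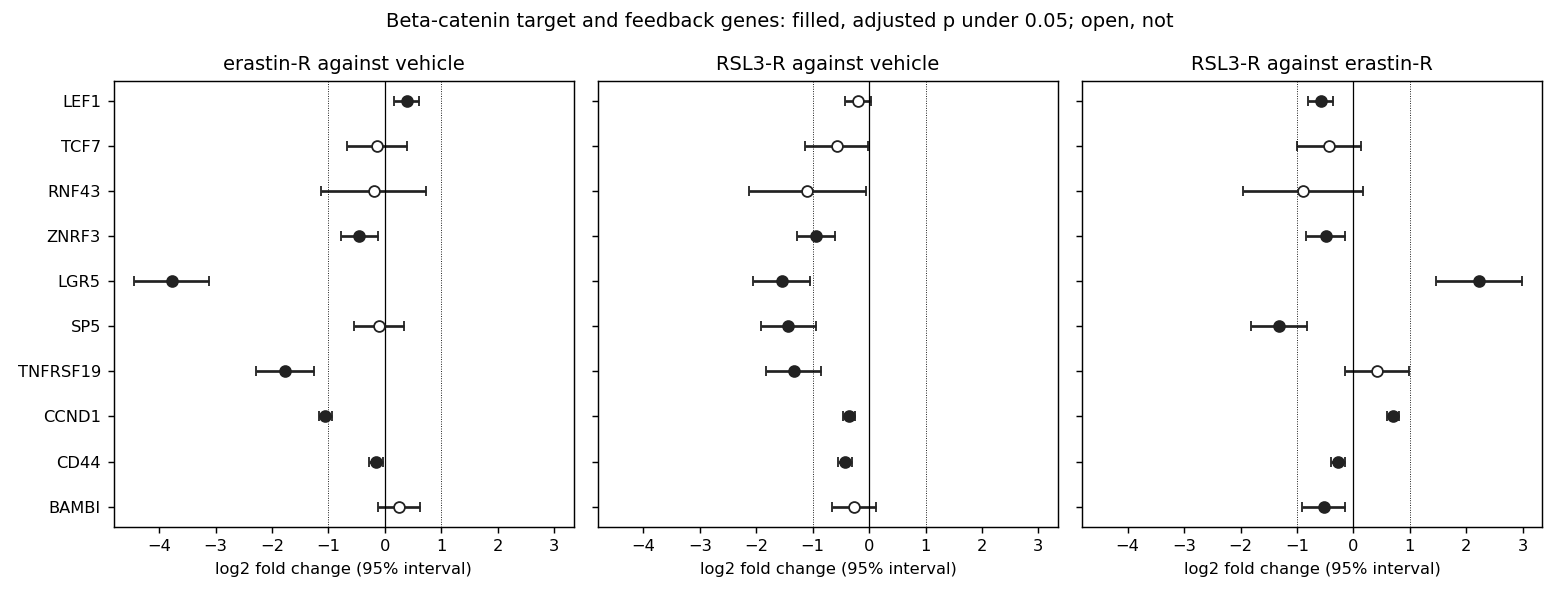
Log2 fold change with its 95% interval (horizontal axis) for the 10 tested beta-catenin target and feedback genes other than AXIN2 and DKK1, in the 3 comparisons; filled points passed an adjusted p of 0.05 in edgeR. LGR5 lay at -3.78 in erastin-R and -1.55 in RSL3-R, and LEF1 was the only gene called higher than vehicle, in erastin-R.

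Of 25 tested genes of the destruction complex, Dishevelled and the nuclear factors, 8 rose and 4 fell in erastin-R, and 7 rose and 6 fell in RSL3-R. TLE2, a corepressor of TCF factors with 6 to 33 counts per library, fell by 1.40 in RSL3-R (edgeR adjusted p = 0.0160), with -0.98 in erastin-R (adjusted p = 0.0607). Its paralogs TLE1 and TLE3 were named after their values had been seen. TLE1 rose by 0.88 in erastin-R and 0.27 in RSL3-R (edgeR adjusted p = 5.15e-06 and 0.0381). TLE3 differed by 0.06 and -0.33 (edgeR adjusted p = 0.589 and 0.0102). Of 13 tested genes of planar cell polarity and the non-canonical branch, 3 rose and 6 fell in erastin-R, and 2 rose and 4 fell in RSL3-R. VANGL1, a core polarity protein, fell by 0.98 ± 0.06 and 1.02 ± 0.06 (edgeR adjusted p = 2.12e-08 and 1.36e-08), from 140.0 to 145 CPM in vehicle to 67.5 to 74.5 in erastin-R and 69.5 to 71.0 in RSL3-R. CELSR3, an atypical cadherin of the same system, rose by 1.01 and 0.33 (edgeR adjusted p = 3.63e-07 and 0.00565). Lists share some genes, such as LGR5, so their counts do not add up to 67 genes.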

How the data were processed

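RNA of 9 libraries was sequenced, 3 each of vehicle, erastin-R and RSL3-R cells. The authors deposited a raw count per gene and an FPKM value made from it. Per the submitters' processing notes, HISAT2 2.0.5 and featureCounts 1.5.0-p3 were used, and the methods state that uniquely mapped exonic reads were counted. Strand setting and build are not given in the sources used here, but all 58735 gene IDs and coordinates equal GENCODE 29 (GRCh38). The deposited FPKM used 0.990 to 1.035 times the total count as library size.

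Counts were tested in R 4.3.3 with edgeR 4.0.16: filterByExpr, TMM and a quasi-likelihood fit of all 9 libraries without covariate, with Benjamini-Hochberg adjustment over 16188 genes. A gene was called at an adjusted p under 0.05, and differentially expressed where the absolute log2 fold change was also at least 1. Levels are CPM on TMM-scaled library sizes, and means are given ± SD or, for fold changes, ± SE. The scripts were tested on simulated data. Alternatives were another normalization (RLE), DESeq2 1.42.0, no count filter, a fit of 2 conditions only, the replicate block, an unadjusted p and each library left out. List counts and values of named list genes without erastin-R replicate 1 were added after seeing the data.

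The members and lists were chosen with earlier results of these data known. Outside the 10 members, the text names from each list up to 4 genes per comparison with vehicle with the largest change among those differentially expressed, or else the 2 of the highest FPKM; exceptions are stated. Promoters come from RefSeq (GRCh38.p14), where 5 of the 10 members had an entry; FZD2, FZD6, FZD7, LRP6 and AXIN2 had none. Floors cover counting error of the lower condition only.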

Additional observations from a re-analysis of the deposited data

Results flagged for a closer look

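For 4 of the 10 genes the difference from vehicle had opposite signs in the resistant populations and the direct difference between them passed the edgeR test. Of all genes tested, 22.3% were called higher and 26.9% lower in the direct comparison. The share of all genes with both features was not computed, so the count does not set the members apart from other genes. FZD6 was higher in RSL3-R than in erastin-R by 0.92 on the log2 scale, with 99.7 to 108 CPM against 51.8 to 59.6. FZD7 differed by -1.06, with 33.2 to 37.3 CPM in RSL3-R against 50.6 to 84.8 in erastin-R, and by -1.27 without erastin-R replicate 1. DKK1 differed by -0.70, with 75.7 to 84.1 CPM against 111 to 140.0. FZD2 differed by -0.29, with 48.0 to 52.0 CPM against 49.3 to 68.8, and its call was lost without any 1 of 5 libraries, erastin-R replicates 2 and 3 and RSL3-R replicates 1, 2 and 3 (-0.32 to -0.21). The FZD2 call was also lost in the fit of these 2 conditions only. In the fit of all 9 libraries the differences from vehicle that passed the test were those of FZD6 and DKK1 in erastin-R and of FZD7 in RSL3-R. The opposite ones passed in some alternatives, FZD6 in RSL3-R in the fit of 2 conditions (adjusted p = 0.0400), DKK1 in RSL3-R in that fit and without erastin-R replicate 1 (adjusted p = 0.0487 and 0.0269), and FZD7 in erastin-R without a count filter and without erastin-R replicate 1 (adjusted p = 7.86e-04 and 3.28e-08). FZD2 in erastin-R passed without erastin-R replicate 1 (adjusted p = 3.18e-05).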

How the results depend on the processing

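The calls of WNT5A, FZD1, FZD6 and DKK1 in erastin-R, of WNT5A, FZD1, FZD7 and FZD8 in RSL3-R, and of FZD1, FZD6, FZD7, FZD8 and DKK1 between the resistant populations held in 14 of 14 alternatives. The count of members called in erastin-R was 5 and became 9 without erastin-R replicate 1, with a range of 4 to 9 over the libraries left out; the cause was not tested. PORCN and WLS, 1 of which was called in RSL3-R, were both called without that library, a count of 2. Between RSL3-R and erastin-R, WNT5B ranged from -0.246 to 0.0071 over the libraries left out, positive without erastin-R replicate 2, and AXIN2 from -0.32 to 0.090, positive without erastin-R replicate 3; neither passed the test in the full fit or where positive. Replicate numbers did not pair the libraries: deviations from the condition means correlated at -0.00495 on average over 9 like-numbered pairs and at 0.00256 over 18 unlike ones. With the replicate block, 2153, 1614 and 1652 genes were differentially expressed in erastin-R, RSL3-R and between them, against 2162, 1635 and 1674. Of the members' calls, FZD8 in erastin-R and WNT5A between the resistant populations were lost with it (adjusted p = 0.0611 and 0.0724), and no other changed. AXIN2 had 33 to 78 counts, and the part of depth in its wide interval was not tested.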
